A study of Mus musculus with 24 samples.

Results

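The collagen genes of pancreatic islets were followed across 2 mouse strains and 3 diets. Members were all array probes whose gene name in the scanner files is Col, a number, a and a number. The rule gave 68 probes for 43 genes, out of 55681 probes for 34797 gene names. Of the 43 genes, 6 code for fibrillar chains (Col1, Col3 and Col5), 8 for basement membrane chains (Col4, Col15 and Col18), 6 for collagen VI chains and 23 for other collagens.

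Islets came from male C57BL6/J (BL6) and C57BLKs/J (BLKS) mice, with 1 single-colour Agilent array per mouse and 24 arrays in all. Mice of each strain ate chow, in which fat gave 18% of kcal, a high-fat diet (HFD), in which it gave 42%, or that HFD with 140 mg of pioglitazone per kg diet. Pioglitazone activates PPAR-gamma, a nuclear receptor. Each of the 6 groups held 4 mice that were 8 weeks old at the start. The sample labels give 12 weeks of feeding and the series' design text 16 weeks, so the duration is uncertain. No group carried a transgene or a deleted gene by its labels, and the RNA was that of whole islets released with collagenase.

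Collagens are made of chains wound into a triple helix, which needs glycine at regular steps along each chain. Fibrillar collagens form the cables of interstitial connective tissue and are made mainly by fibroblasts and stellate cells, while type IV collagen forms the sheet of the basement membrane, which in islets surrounds the capillaries. Type VI collagen forms beaded filaments between both. Chains are processed by hydroxylases and chaperones before secretion, cross-linked by lysyl oxidases and transglutaminases outside the cell, bound by integrins and removed by matrix metalloproteinases and cathepsins.

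The repeat of the triple helix can be read in the probes that lie in helix-coding sequence. This pair is shown for that repeat, with the glycine codons in capitals. Each 60-base probe holds 6 such codons, evenly spaced. The first probe lies at chr3:130270497-130270556 and the second at chr4:47283786-47283845, both on mm9.
Col25a1 probe: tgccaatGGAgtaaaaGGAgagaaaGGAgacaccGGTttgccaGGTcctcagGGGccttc
Col15a1 probe: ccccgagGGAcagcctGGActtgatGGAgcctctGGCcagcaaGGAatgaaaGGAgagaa
These probes were dim in islets. The Col25a1 probe was well above background on 1 of 24 arrays and the Col15a1 probe on 2.

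The starts of 4 genes are also shown. The levels of Col1a2 and Col3a1 each followed those of Col1a1 from mouse to mouse. Col18a1 was higher in BLKS islets, and Col8a2 was well above background in BL6 islets alone. Each line holds the 150 bases before the annotated start, 5′ to 3′ on the coding strand, from RefSeq on GRCm38.p6. Capitals mark matches to the core letters of 3 promoter motifs on either strand. The TATA box was searched as TATAAA. The box bound by NF-Y was searched as CCAAT. The box bound by Sp1 was searched as GGGCGG.
Col1a2, chr6:4505468-4505617, + strand: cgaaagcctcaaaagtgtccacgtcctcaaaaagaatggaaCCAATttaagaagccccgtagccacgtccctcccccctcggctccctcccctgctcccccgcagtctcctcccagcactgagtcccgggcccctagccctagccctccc
Col3a1, chr1:45311388-45311537, + strand: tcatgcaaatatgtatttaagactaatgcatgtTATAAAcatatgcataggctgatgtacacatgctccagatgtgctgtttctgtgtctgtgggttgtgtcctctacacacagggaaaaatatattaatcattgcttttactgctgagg
Col18a1, chr10:77166531-77166680, - strand: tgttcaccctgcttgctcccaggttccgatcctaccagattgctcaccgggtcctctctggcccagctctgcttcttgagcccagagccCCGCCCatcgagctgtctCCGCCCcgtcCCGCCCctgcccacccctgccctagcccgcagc
Col8a2, chr4:126286644-126286793, + strand: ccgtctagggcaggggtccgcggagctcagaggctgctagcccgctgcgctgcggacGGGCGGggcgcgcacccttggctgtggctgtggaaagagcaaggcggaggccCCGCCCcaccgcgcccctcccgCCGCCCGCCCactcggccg
The printed Col18a1 window holds 3 matches to GGGCGG and the Col8a2 window 4. Col18a1 has 2 annotated starts, and the upstream one is shown. The 150 bases before the other start hold 0 matches to the 3 motifs, and which start islets use was not tested. Of the 43 genes, 35 had an entry, with 38 promoters. Within the 250 bases before the start, GGGCGG was in 57.9% of those 38 and in 32.7% of 32851 promoters of all genes. TATAAA was in 13.2% against 12.4%, and CCAAT in 34.2% against 33.8%. A match describes the letters and is no evidence of binding. The annotated starts of Col4a1 (chr8, position 11312826, - strand) and Col4a2 (position 11312805, + strand) lie 21 bases apart on opposite strands, so that the annotated 5′ ends overlap.

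Probes that the scanner software marked as well above background in 4 or more of the 24 mice were kept, leaving 26 collagen genes, and the brightest kept probe stood for each. Levels are log2 processed intensity relative to the 75th percentile of the array, so a level of 0 equals that percentile, and levels of different probes are not set against each other. The kept genes comprised 5 of 6 fibrillar, 6 of 8 basement membrane, 4 of 6 Col6 and 11 of 23 other collagens. Col5a2 (fibrillar), Col15a1 and Col4a3 (basement membrane), and Col6a4 and Col6a5 (Col6) were among the 17 genes too dim to test. Of all 43 genes, 21 had a kept probe above background on every array and 8 were above background on none.

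Arrays had a 75th percentile of 218 to 402 intensity units, and 27373 to 32459 probes were well above background. The islet label fitted its markers: Ins1, Gcg and Chga were well above background on all 24 arrays, and the mean level of 12 endocrine markers lay between 6.74 and 7.55. Acinar markers (20 measured) varied most between mice, with mean levels from -2.88 to 6.77. The arrays lay on 4 slides, and no slide held both strains on the same diet. Slide 1 held BL6 chow and HFD, slide 3 held BLKS HFD and HFD with pioglitazone, and slides 2 and 4 held BLKS chow with BL6 HFD with pioglitazone, the latter 1 array of each. Strain and slide therefore cannot be told apart within a diet, and the strain calls of named genes over the 3 diets are set beside slides 2 and 4, where the diets differ instead. Every value given inside slides 2 and 4 is BLKS chow minus BL6 HFD with pioglitazone. There strain cannot be told apart from diet and drug.

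Between the strains, collagen genes were called in both directions. The shares called are given beside those of all genes, and the difference between them was not tested. Averaged over the 3 diets, 6 collagen genes were higher and 9 lower in BLKS islets out of 26, or 57.7%, against 64.7% of all 22968 genes, of which 30.1% were higher and 34.5% lower (limma, Benjamini-Hochberg adjusted p under 0.05). On chow 4 were higher and 5 lower (34.6%, against 41.6% of all genes, 20.6% higher and 20.9% lower). On HFD 3 were higher and 7 lower (38.5% against 49.9%, 23.2% higher and 26.7% lower). On HFD with pioglitazone 4 were higher and 7 lower (42.3% against 45.8%, 23.0% higher and 22.8% lower). The 4 mice of each strain did not overlap for 9 collagen genes on chow, 6 on HFD and 10 on HFD with pioglitazone, where 46.8%, 39.9% and 38.6% of all genes did not overlap. Col18a1, Col4a2, Col6a3, Col6a6, Col8a2, Col11a2 and Col20a1 were the 7 genes called on each diet. The lower and non-overlapping counts include Col8a2 throughout. Its probe was kept through BL6 arrays alone, so its calls follow from the filter. Col4a5 and Col8a1, also among the lower genes, were above background in 3 and 2 BLKS mice, fewer than the 4 arrays the filter needs. They too were kept through BL6 arrays, so their lower calls are tied to the filter. The HFD count fell from 10 to 6 without BL6 HFD mouse 1 and also when only the groups compared were fitted. The median difference was -0.02 for the fibrillar, 0.07 for the basement membrane and -0.50 for the Col6 genes, with -0.05 over all genes.

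**Figure D1:**
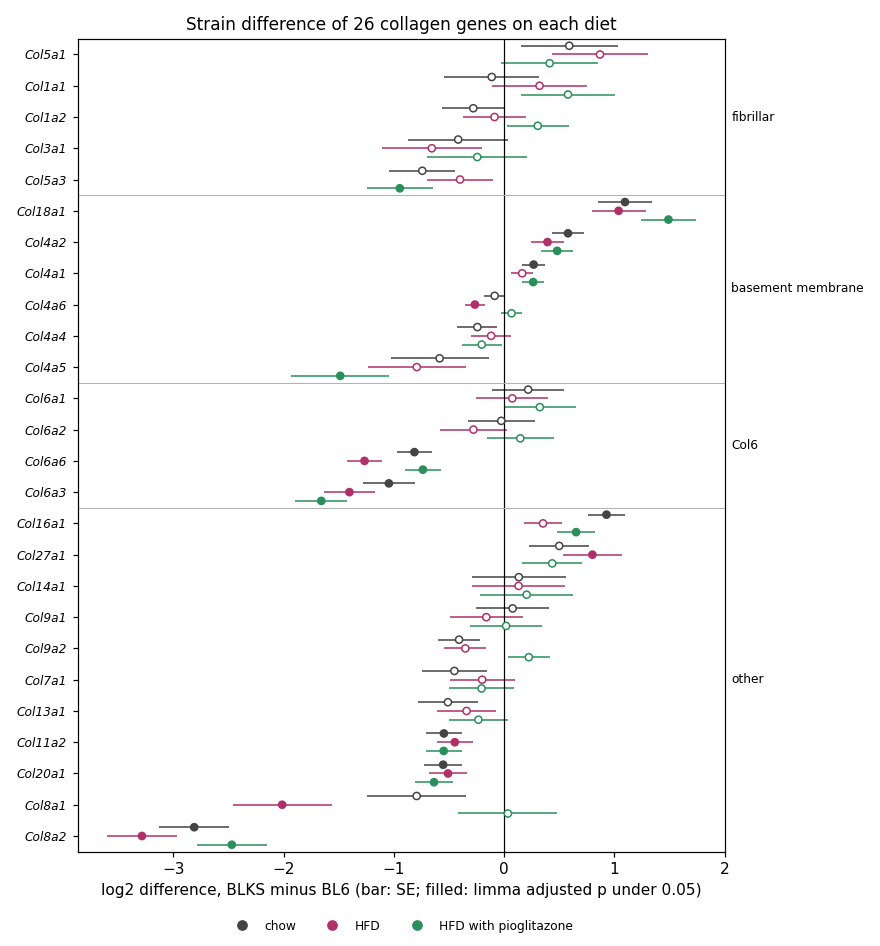
Log2 difference between strains (BLKS minus BL6, x axis) of each of 26 collagen genes (y axis, by class) on chow, HFD and HFD with pioglitazone. Points are limma estimates from 4 mice against 4, bars are SE and filled points have an adjusted p under 0.05; Col18a1 lies to the right and Col6a3 and Col6a6 to the left on all 3 diets. Col8a2 is fitted against BLKS values not well above background.

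The main fibrillar chains did not separate the strains. Col1a1, which codes for the major chain of type I collagen, had levels of 0.12, -0.99, -0.65 and -0.20 in the 4 BL6 chow mice and 0.61, -0.83, -1.001 and -0.95 in the 4 BLKS chow mice. On HFD with pioglitazone the levels were -1.97, -0.17, 0.47 and -0.16 in BL6 and -0.03, 0.51, -0.25 and 0.25 in BLKS. The strains overlapped throughout, with 1 high mouse among the BLKS chow mice and 1 low mouse among the BL6 pioglitazone mice. The strain difference of Col1a1 over 3 diets was 0.26 (95% interval -0.25 to 0.78).

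Col1a2, the second type I chain, differed by -0.02 (interval -0.36 to 0.32), and Col3a1, the chain of type III collagen, by -0.44 (-0.99 to 0.11), with adjusted p of 0.918 and 0.150 in limma. The type V chains, which set fibril width, went apart. Col5a3 fell by 0.70 ± 0.17 (SE; limma adjusted p = 0.00142; means -2.03 in BLKS and -1.34 in BL6, 12 mice each). Inside slides 2 and 4 its difference was -1.002 (adjusted p = 0.0120). Col5a1 was 0.62 ± 0.25 higher (adjusted p = 0.0370), but was above background in 6 of 12 BL6 mice, lost its call in 12 of 24 fits that left out a mouse, and differed by -0.01 inside slides 2 and 4.

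Of the basement membrane chains, 3 rose and 1 fell. Col18a1 codes for the core protein of collagen XVIII, a heparan sulfate proteoglycan whose C-terminal fragment is endostatin. In BL6 its levels were -0.35, -1.06, -0.89 and -1.14 on chow, -0.73, -0.68, -0.88 and -0.74 on HFD, and -1.48, -0.59, -0.85 and -0.67 on HFD with pioglitazone. In BLKS they were 1.08, 0.01, -0.11 and -0.04 on chow, 0.44, 0.54, -0.17 and 0.30 on HFD, and 0.28, 0.73, 0.82 and 0.55 on HFD with pioglitazone. All 12 BLKS mice lay above all 12 BL6 mice. Col18a1 was 2.31-fold higher in BLKS (log2 difference 1.21 ± 0.14, limma adjusted p = 2.33e-07), and 1.13 higher inside slides 2 and 4 (adjusted p = 0.00111). Its other kept probe differed by 0.99.

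Col4a1 and Col4a2, whose chains join in the common type IV network, were both higher in BLKS by smaller steps. Col4a2 ranged from 1.25 to 2.17 in BL6 (median 1.69) and from 1.71 to 2.50 in BLKS (median 2.20), with overlap between the strains. It was 1.40-fold higher (0.48 ± 0.09, adjusted p = 4.53e-05) and 0.78 higher inside slides 2 and 4. Col4a1 was 1.17-fold higher (0.23 ± 0.06, adjusted p = 0.00187) and 0.57 higher inside the slides. The BL6 mean of Col4a1 was 2.45 on chow and 2.15 on HFD with pioglitazone. The value inside the slides can therefore not be read as strain alone. On single diets the calls were less firm: Col4a1 lost its call on chow and on HFD with pioglitazone in 6 of 8 fits that left out a mouse, and Col4a2 lost its call on HFD in 5 of 8, with adjusted p up to 0.150 and 0.130.

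The minor type IV chains did not follow. Col4a5 fell by 0.96 ± 0.26 (adjusted p = 0.00281) near background: it was well above background in 9 BL6 and 3 BLKS mice, and inside slides 2 and 4 it was at -0.92 (adjusted p = 0.104). Its probe passed the filter through BL6 arrays, so its lower call is tied to the filter. Col4a4 (-0.19) and Col4a6 (-0.10) did not pass over the 3 diets. Col4a6 was called on HFD, at -0.27, a call lost in 3 of 8 fits that left out a mouse (BL6 mouse 2 or 3 or BLKS mouse 2, adjusted p up to 0.0674).

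The Col6 chains split. Col6a3, the long chain whose C-terminal end is released as endotrophin, had levels of 0.61, 0.60, 0.80 and 1.10 in BL6 on chow, 0.53, 1.38, 1.55 and 0.71 on HFD, and 1.73, 1.16, 1.33 and 0.86 on HFD with pioglitazone. In BLKS it was at 0.11, -0.16, -0.35 and -0.67 on chow, -0.45, -0.84, 0.14 and -0.30 on HFD, and -0.40, -0.27, -0.42 and -0.46 on HFD with pioglitazone. Every BLKS mouse lay below every BL6 mouse. Col6a3 was 2.58-fold lower in BLKS (-1.37 ± 0.14, adjusted p = 1.95e-08), and at -1.54 inside slides 2 and 4.

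Its partner chains Col6a1 and Col6a2, which form the trimer with it, showed no such step. Col6a1 ranged from -0.95 to 0.87 in BL6 and from -0.41 to 0.64 in BLKS, a difference of 0.20 (interval -0.19 to 0.60). Col6a2 differed by -0.05 (interval -0.42 to 0.31). Col6a6, an alternative to the Col6a3 chain, was 1.92-fold lower in BLKS (-0.94 ± 0.09, adjusted p = 2.19e-08), and its second kept probe was at -1.33. Col6a6 inside slides 2 and 4 was at -0.39 with an adjusted p of 0.0506.

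**Figure D2:**
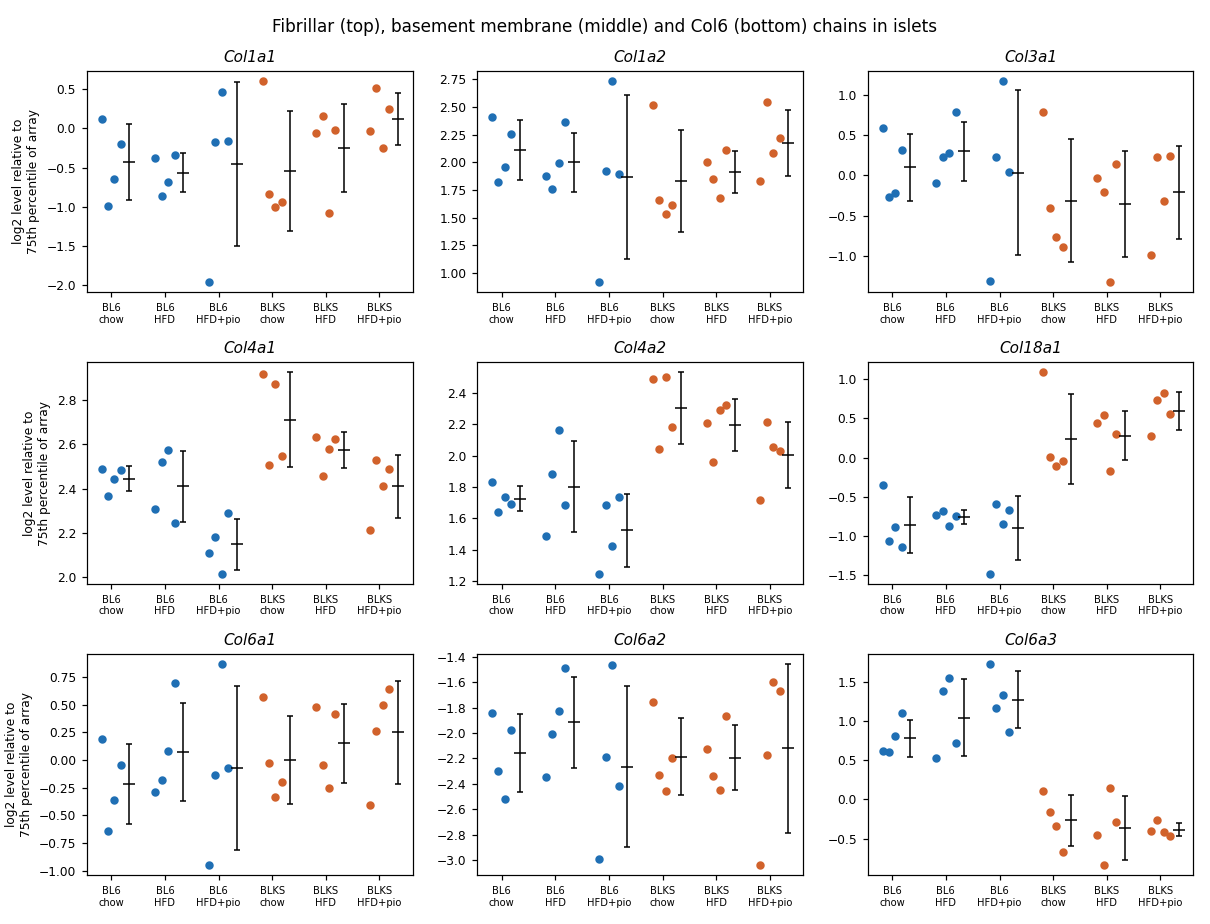
Levels of 9 collagen genes (y axis, log2 relative to the array's 75th percentile) in each of 24 mice by group (x axis; points are mice 1 to 4 from left to right, black marks the group mean and SD). Col18a1 and Col6a3 separate all 12 BL6 mice (blue) from all 12 BLKS mice (orange), while Col1a1, Col1a2, Col3a1, Col6a1 and Col6a2 overlap.

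Among the other collagens, Col8a2 was well above background in BL6 islets alone. Together with Col8a1 it forms the short-chain type VIII network found around endothelium and in the cornea. Col8a2 ranged from -4.84 to -2.70 in BL6 and was well above background in 10 of 12 mice, and from -7.01 to -4.97 in BLKS, where no mouse was well above background. The BLKS level is thus only a bound, against which Col8a2 was at least 2.09-fold lower (measured means -6.44 in BLKS and -3.59 in BL6). Its probe was kept through BL6 arrays alone, so its place among the genes called lower follows from the filter, and its fitted differences are not read further. Col8a1 was above background in 7 BL6 and 2 BLKS mice and was 1.90-fold lower over the 3 diets (-0.92 ± 0.26, adjusted p = 0.00380), at -0.93 inside slides 2 and 4 (adjusted p = 0.112). By diet, Col8a1 was at -0.79 on chow, which did not pass, at least 1.63-fold lower on HFD, where no BLKS mouse was above background (adjusted p = 8.97e-04), and at 0.03 on HFD with pioglitazone. The Col8a1 probe passed the filter through BL6 arrays, so its lower calls are tied to the filter too.

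Col16a1, a fibril-associated collagen, was 1.56-fold higher in BLKS by its brightest probe (0.64 ± 0.10, adjusted p = 8.09e-06; 1.21 inside slides 2 and 4). A second kept probe gave -0.61, and the mean of the probes -0.04, so the direction for Col16a1 depends on the probe. Col27a1, a further fibrillar chain, rose by 0.58 ± 0.16 (adjusted p = 0.00283), with 0.58 inside slides 2 and 4 (adjusted p = 0.0991). Col11a2, a chain of cartilage type XI fibrils, fell by 0.51 ± 0.09 (adjusted p = 7.05e-05) and was at -0.49 inside the slides. Col20a1 fell by 0.57 ± 0.10 (adjusted p = 4.79e-05), and its second probe was at -0.67, but Col20a1 was at -0.34 inside slides 2 and 4, where the call was lost (adjusted p = 0.136). Col13a1, a transmembrane collagen, was called at -0.36 (adjusted p = 0.0474), but lost the call in 18 of 24 fits that left out a mouse and was at 0.34 inside slides 2 and 4. Col7a1, Col9a1, Col9a2 and Col14a1 did not pass.

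Inside slides 2 and 4, 8 of the 26 collagen genes were called (30.8%, against 43.5% of all genes). Col4a1, Col4a2, Col16a1 and Col18a1 were higher in BLKS on chow than in BL6 on HFD with pioglitazone. Col5a3, Col6a3, Col8a2 and Col11a2 were lower, Col8a2 again against BLKS values not above background. Strain, diet and drug cannot be told apart in these differences. All of these were among the 15 genes called over the 3 diets. Of those 15, 13 kept their sign inside the slides, the exceptions being Col5a1 and Col13a1.

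**Figure D3:**
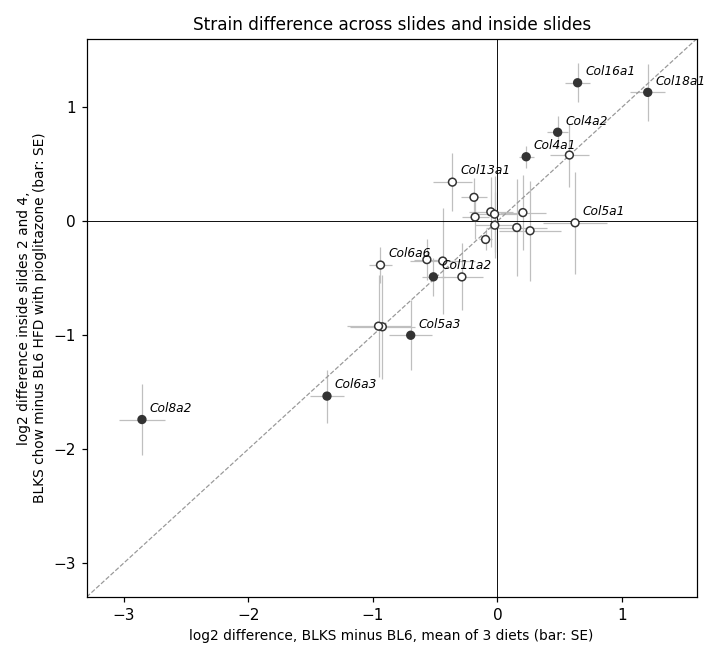
Strain difference of 26 collagen genes averaged over 3 diets (x axis, log2, BLKS minus BL6) against the difference inside slides 2 and 4 (y axis, BLKS chow minus BL6 HFD with pioglitazone). Points are genes, bars are SE, filled points have an adjusted p under 0.05 inside the slides and the dashed line marks equal values; Col6a3, Col18a1 and Col11a2 lie near the line. Col8a2 was not well above background in BLKS.

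The high-fat diet changed no collagen gene at the threshold in either strain. In BL6, 0 of 26 were called between HFD and chow, against 0.0435% of all genes, and 1 collagen gene (Col4a6, 0.24) had an unadjusted p under 0.05 in limma. No collagen gene separated the 4 BL6 HFD mice from the 4 chow mice, where 4.86% of all genes did. In BLKS, 0 were called against 0.0784%, and 3 had an unadjusted p under 0.05. These were Col6a6 (-0.56, adjusted p = 0.222), Col16a1 (-0.58, adjusted p = 0.224) and Col8a2 (adjusted p = 0.259). The chow and HFD values of these 3 did not overlap in BLKS, as for 5.80% of all genes, but Col8a2 was not well above background in any of those 8 mice, so that its values have no order. Col6a6 was at -1.71, -1.80, -1.15 and -1.77 on chow and at -2.27, -1.94, -2.24 and -2.20 on HFD. All 4 BLKS HFD mice were lower, and the chow mouse at -1.15 stood apart from its group. The second kept probe of Col6a6 differed by -0.32 (limma adjusted p = 0.731 with every probe as a row). BLKS chow and HFD arrays lay on different slides and cannot be told apart from them, whereas the BL6 chow and HFD arrays shared slide 1. Acinar markers had a median difference of 1.94 in BL6 and 2.66 in BLKS between HFD and chow, with 0 of 20 called in either. The part of acinar RNA in the collagen values on HFD was not tested.

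Fibrillar chains on HFD were bounded by the data only loosely. The HFD difference of Col1a1 was -0.14 (interval -1.03 to 0.76) in BL6 and 0.30 (-0.60 to 1.19) in BLKS. Col4a1 was bounded more tightly: it differed by -0.03 (-0.25 to 0.18) in BL6 and by -0.14 (-0.35 to 0.08) in BLKS. Averaged over the strains, 0 collagen genes were called, against 0.0348% of all genes, and 4 had an unadjusted p under 0.05.

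Pioglitazone added to the HFD also called no collagen gene. In BL6, 0 of 26 passed, against 0.192% of all genes, and 2 had an unadjusted p under 0.05. One was Col4a1, at 2.31, 2.52, 2.58 and 2.24 on HFD and 2.11, 2.18, 2.01 and 2.29 with pioglitazone, a difference of -0.26 (interval -0.48 to -0.05; limma adjusted p = 0.368). The groups overlapped by 1 mouse, and these arrays lay on different slides. In BLKS, where HFD and pioglitazone arrays shared slide 3, Col4a1 differed by -0.16 (-0.38 to 0.05). The other gene in BL6 was Col13a1, at -0.63 (adjusted p = 0.414). In no collagen gene did the BL6 pioglitazone and HFD mice separate, where 3.28% of all genes did.

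In BLKS, 0 of 26 passed for pioglitazone, against 0.00435% of all genes, and Col8a1 had an unadjusted p under 0.05. Col8a1 was at -5.28, -5.70, -6.57 and -6.81 on HFD, where no mouse was well above background, and at -3.88, -3.64, -4.73 and -4.98 with pioglitazone, where 2 were. Since no HFD mouse was measured above background, Col8a1 was at least 1.39-fold higher with pioglitazone, which did not pass (adjusted p = 0.259). Col8a1 and Col13a1 (-0.52) were the 2 collagen genes whose BLKS groups did not overlap for pioglitazone, where 2.86% of all genes did not. In BL6 Col8a1 differed by -0.27. No collagen gene passed for the pioglitazone effect between strains (0.00871% of all genes; 4 collagen genes at an unadjusted p under 0.05), for the HFD effect between strains (0% of all genes; 1 collagen gene) or for pioglitazone averaged over the strains (0.0218%; 5 collagen genes). Comparisons with HFD and pioglitazone share the HFD mice.

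**Figure D4:**
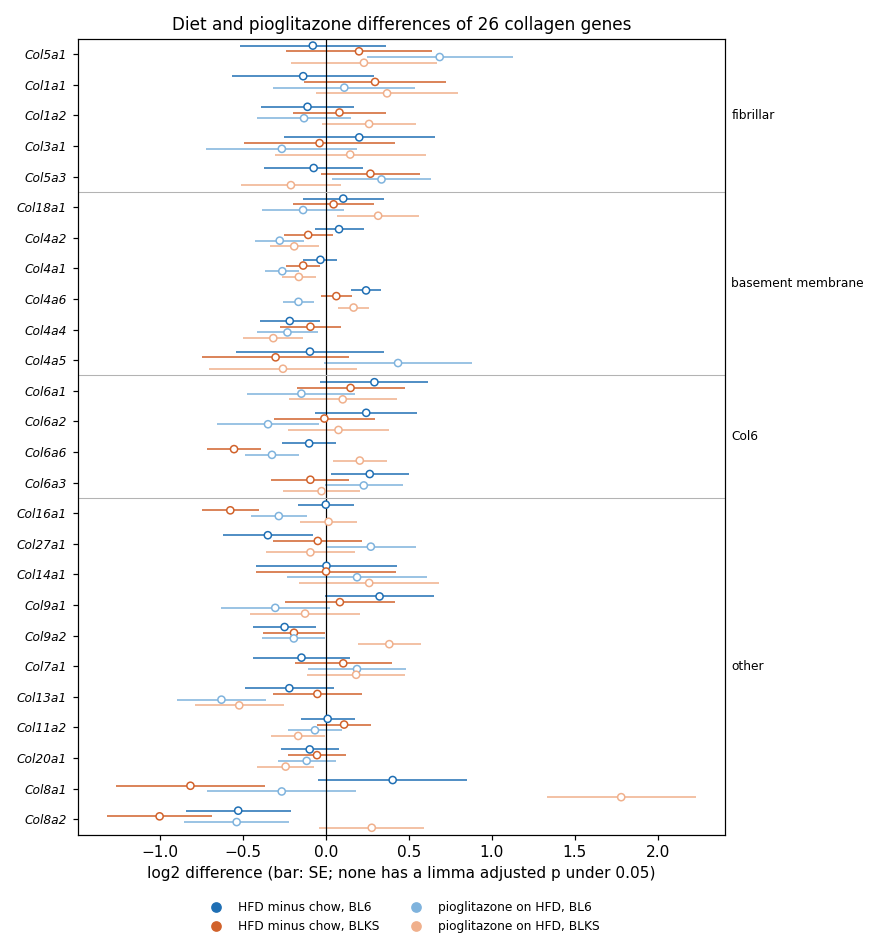
Log2 differences (x axis) of 26 collagen genes (y axis, by class) for HFD minus chow and for pioglitazone on HFD, in each strain. Points are limma estimates from 4 mice against 4 and bars are SE; no point has an adjusted p under 0.05, and the point farthest out, Col8a1 with pioglitazone in BLKS, is fitted against HFD mice in which it was not well above background.

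Most collagen genes had a larger SD within groups than the median gene. That SD had a median of 0.41 over the 26 collagen genes and 0.21 over all genes, and 23 of the 26 lay above the latter. The median probe signal was -1.25 for the collagen genes and -0.09 for all genes, given as signal and not as amount of RNA. Col5a1, Col4a5 and Col8a1 lay near background. The part of signal level in the spread was not tested. Col3a1 (SD 0.68) and Col1a1 (0.64) varied more than 92.1% and 91.0% of genes. Col4a1 (0.14) lay at percentile 18.7 and Col4a6 (0.12) at 10.9. These spreads set the width of the intervals above.

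Col1a2, Col3a1 and Col6a1 varied with Col1a1 from mouse to mouse. Over the 24 arrays Col1a1 correlated with Col1a2 (Pearson r = 0.87, Spearman rho = 0.80; adjusted permutation p = 5.33e-05 and 0.000107 over the 16 pairs computed), with Col3a1 (r = 0.70, rho = 0.64; adjusted permutation p = 0.000384 and 0.00245) and with Col6a1 (r = 0.75, rho = 0.68; adjusted permutation p = 0.000120 and 0.000992). Without the 2 arrays farthest from the median of Col1a1, r was 0.80, 0.56 and 0.66. After subtracting the group means r was 0.91, 0.91 and 0.77. Within slides 1, 2 and 3, r with Col1a2 was 0.86, 0.98 and 0.74, with Col3a1 0.62, 0.97 and 0.81, and with Col6a1 0.58, 0.94 and 0.41. The BL6 pioglitazone mice illustrate the size of these shifts: mouse 1 was lowest of the 4 in Col1a1 (-1.97), Col1a2 (0.91), Col3a1 (-1.32) and Col6a1 (-0.95), and mouse 3 was highest in all of them (0.47, 2.74, 1.18 and 0.87).

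Col4a1 and Col4a2 also varied together. They correlated at r = 0.90 and rho = 0.91 (adjusted permutation p = 5.33e-05 and 8.00e-05), at 0.88 without the 2 farthest arrays, and at 0.79, 0.96 and 0.94 within slides 1, 2 and 3. Both were called between the strains, and r was 0.81 within BL6 and 0.95 within BLKS. Col1a1 and Col4a1 correlated at r = 0.08 and rho = -0.01 (adjusted permutation p = 0.809 and 0.978), and at -0.11 without 2 arrays. Since Col18a1 separated the strains, its correlations are described within each strain, 12 mice each, with no test. Col18a1 with Col1a1 gave r = 0.69 in BL6 and 0.89 in BLKS, and Col18a1 with Col4a1 gave 0.22 in BL6 and 0.05 in BLKS. The difference between these correlations was not tested.

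Col6a1 and Col6a2 moved as one (r = 0.86, rho = 0.88, adjusted permutation p = 5.33e-05 and 8.00e-05; 0.79 without 2 arrays and 0.90, 0.98 and 0.92 within slides 1, 2 and 3). Col6a3 also separated the strains, and with Col6a1 it gave r = -0.10 within BL6 and 0.09 within BLKS.

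**Figure D5:**
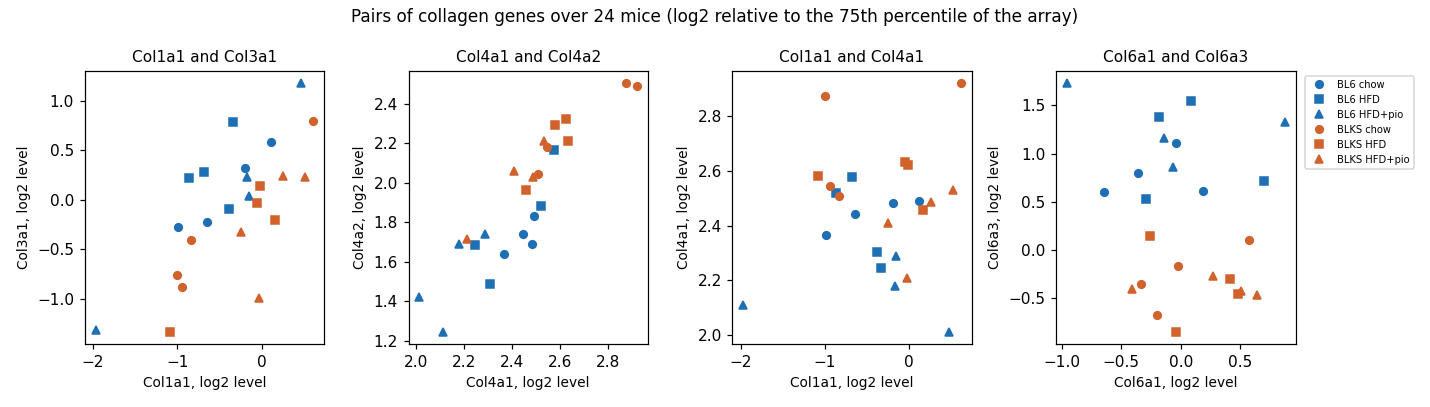
Levels of 4 pairs of collagen genes in 24 mice (both axes log2 relative to the array's 75th percentile; colour gives the strain and symbol the diet). Col1a1 with Col3a1 and Col4a1 with Col4a2 lie along a line (r = 0.70 and 0.90), Col1a1 with Col4a1 does not (r = 0.08), and in Col6a1 with Col6a3 the strains form separate clouds.

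Markers of the cells that make collagen were set beside these genes. Pdgfrb, a receptor of pericytes and stellate cells, correlated with Col1a1 at r = 0.30 and rho = 0.25 (adjusted permutation p = 0.225 and 0.411), at 0.13 without 2 arrays and at 0.61 after subtracting group means. Pecam1, an endothelial adhesion molecule, correlated with Col4a1 at r = 0.65 and rho = 0.74 (adjusted permutation p = 0.00128 and 0.000360). Without 2 arrays r was 0.75, and within slides 1, 2 and 3 it was 0.67, 0.59 and 0.75. It was 0.52 within BL6, 0.46 within BLKS and 0.33 after subtracting group means. The permutation ran over all arrays without regard to group, and Col4a1 was called between the strains, so that p can include group differences. Pdgfrb gave r = -0.06 and rho = -0.10 with Col4a1 (adjusted permutation p = 0.814 and 0.735), and 0.56 after subtracting group means. With Col1a1, Pecam1 gave r = 0.36, which fell to 0.004 without the 2 farthest arrays and so rests on them. Lama4, a laminin chain of endothelial basement membrane, gave r = 0.10 with Col4a1 over all arrays, but 0.74 within BL6 and 0.80 within BLKS, with 0.88, 0.02 and 0.66 within slides 1, 2 and 3. Cela2a, an acinar protease, gave r = -0.30 with Col1a1 over all arrays, -0.47 after subtracting group means, and -0.70, -0.44 and -0.37 within slides 1, 2 and 3. Ptprc, a leukocyte antigen, gave r = -0.04 with Col1a1 over all arrays, but 0.58 within BL6 and -0.64 within BLKS, and 0.07, 0.43 and -0.82 within slides 1, 2 and 3. In RNA of whole islets, fewer cells of a type and less RNA per cell cannot be told apart.

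Marker lists were counted between the strains over the 3 diets, where 64.7% of all genes were called. Of 18 stellate, fibroblast and mural markers, 6 were higher and 4 lower in BLKS, with group means from -1.89 to -1.23. Of 20 endothelial markers, 6 were higher and 6 lower, with group means from 0.72 to 0.92. The shares of both lists, and of the ductal list, lay near that of all genes. Ductal markers were higher in 7 of 12 and lower in 1 (single mice from -1.87 to -0.53 in BL6 and from -0.74 to 0.26 in BLKS). Macrophage markers were lower in 14 of 17 and higher in 1 (0.31 to 2.11 in BL6 and -0.16 to 0.69 in BLKS), and Schwann and glial markers were lower in 6 of 9 and higher in 1 (-0.94 to 0.38 in BL6 and -1.63 to -0.18 in BLKS). Endocrine markers were lower in 5 of 12 and higher in none, acinar markers lower in 1 of 20 and lymphocyte markers lower in 1 of 18, with none higher in either. Adipocyte markers were higher in 1 of 5 and lower in none. With pioglitazone on HFD in BL6, 1 of these 5 was called higher, against 0.192% of all genes called. The part of these cell types in the strain differences of Col18a1, Col6a3 and Col8a2 was not tested.

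The other genes of the collagen pathway were read from 7 lists. Between strains averaged over diets, 64.7% of all genes were called, 30.1% higher and 34.5% lower in BLKS, and these shares stand beside each list below. The shares of the lists ran from 41.7% to 85.7%, and their difference from all genes was not tested. The top share, of collagen degradation, includes Mmp13 and Mmp12, whose probes were kept through BLKS arrays alone. Among 21 genes of collagen synthesis, 3 were higher and 7 lower in BLKS. Crtap, part of the prolyl 3-hydroxylase complex, fell by 0.83 ± 0.05, and Glt25d1, the collagen galactosyltransferase, fell by 0.98 ± 0.07 (limma adjusted p = 4.30e-12 and 4.45e-11). P4ha1, a catalytic subunit of prolyl 4-hydroxylase, fell by 0.75 ± 0.13, while its alternative P4ha2 rose by 0.60 ± 0.09. Ppib (-0.46) was also lower. Tram2 (0.73) and Serpinh1 (0.38), the collagen chaperone HSP47, were higher. Crtap (-0.74), Glt25d1 (-1.18), Ppib (-0.31) and P4ha2 (0.71) were called inside slides 2 and 4, while P4ha1 (-0.54) and Serpinh1 (0.45) were not, and Tram2 was at -0.05.

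Of 11 genes of maturation and crosslinking, 3 were higher and 2 lower. Loxl2, a lysyl oxidase of type IV collagen, fell by 0.97 ± 0.05 (adjusted p = 1.79e-12), with all BLKS mice below all BL6 mice, and was at -0.75 inside slides 2 and 4. Pcolce2, a procollagen processing enhancer, was at -0.45. Tgm2, a transglutaminase, rose by 1.39 ± 0.24 (adjusted p = 3.71e-05), and Loxl1 (0.48) and Pxdn (0.31), the peroxidase that cross-links type IV collagen, were higher as well. Inside the slides Tgm2 (1.06) was called, and Loxl1, Pxdn and Pcolce2 were not.

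Of 18 basement membrane partners, 7 were higher and 5 lower. The laminin chains Lamc1 (0.77 ± 0.06) and Lama5 (0.53 ± 0.09) were higher (adjusted p = 3.68e-10 and 3.98e-05), at 0.87 and 0.67 inside slides 2 and 4. Smoc1 (0.78; 0.99 inside the slides) was higher too. Lama4 (-0.40), Lama2 (-0.58), Sparc (-0.28), which binds collagen, and Hspg2 (-0.28), which codes for perlecan, were lower over the 3 diets, but inside the slides none of these 4 was called and Hspg2 was at 0.05.

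Of 24 interstitial partners, 6 were higher and 4 lower. Thbs1, thrombospondin 1, rose by 2.35 ± 0.11 (adjusted p = 2.49e-13; 2.43 inside slides 2 and 4). Fbn2 (0.87), Efemp2 (0.54) and Vcan (0.23) were higher, at 0.65, 0.67 and 0.38 inside the slides, where each was called. Mfap2, a microfibril protein, fell by 1.74 ± 0.11 (adjusted p = 1.34e-11; -1.83 inside the slides), and Aspn (-0.68), Fbln1 (-0.37) and Fmod (-0.28) were lower, though none of these 3 was called inside the slides. Fbln1 was at 0.01 when its probes were averaged, and Fmod lost its call in 13 of 24 fits that left out a mouse.

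Mfap2 was also the single pathway gene called for a diet. With pioglitazone in BL6 its level was -0.11 ± 0.34 (SD, n = 4) against -1.06 ± 0.40 on HFD, a rise of 0.95 ± 0.19 (SE; limma adjusted p = 0.0382). The call was lost without BL6 HFD mouse 1, 2 or 4 or pioglitazone mouse 1 or 2 (adjusted p up to 0.115). It was also lost under quantile normalization, the authors' table, no filter, averaged probes, the replicate block and only the groups compared. The direction was kept in each. The groups lay on different slides.

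Of 14 genes of collagen degradation, 9 were higher and 3 lower (85.7%), with Mmp13 and Mmp12 among the higher genes. Mmp13, a collagenase, was well above background in all 12 BLKS mice and in no BL6 mouse, so it was at least 5.55-fold higher (measured means -2.05 in BLKS and -6.14 in BL6). Mmp12, a macrophage elastase, was likewise above background in BLKS alone and at least 2.51-fold higher (means -3.13 and -5.11). Timp1, a metalloproteinase inhibitor, rose by 2.53 ± 0.22 (limma adjusted p = 2.14e-09) and Ctsb, a lysosomal cathepsin, by 0.73 ± 0.04 (adjusted p = 8.81e-12). Mmp11 (-1.51), Mmp15 (-0.78) and Fap (-0.56) were lower. Inside slides 2 and 4, Timp1 (2.01), Ctsb (0.59) and Mmp11 (-1.23) were called, and Mmp15 and Fap were not. The call of Fap was lost in 16 of 24 fits that left out a mouse. The probes of Mmp13 and Mmp12 were kept through BLKS arrays alone, so their higher calls follow from the filter, over the 3 diets and inside the slides. The list holds enzymes and their inhibitors. When only probes above background on all 24 arrays were used, 6 of its genes were called, where 68% of all genes tested were called.

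Of 13 collagen receptors, 5 were higher and 5 lower. The higher count includes Itga11, whose probe was kept through BLKS arrays alone, so that its call follows from the filter. Itga10 (-1.46), an integrin chain that binds collagen, and Lair1 (-1.15), a collagen receptor of leukocytes, were lower (adjusted p = 3.98e-11 and 3.34e-10), as were Cspg4 (-0.79), which binds type VI collagen, and Cd44 (-0.75). Itga6 (1.21) and Itga3 (0.53), which pair with beta chains as laminin receptors, were higher, as were Itgb1 (0.55), the shared beta chain, and Itga11, which was above background, and so kept, in 7 BLKS mice and no BL6 mouse, and at least 1.20-fold higher. Inside slides 2 and 4, Itga10 (-1.06), Lair1 (-1.55), Itga6 (1.25), Itga3 (0.69), Itgb1 (0.71) and Cd44 (-0.86) were called, and Cspg4 and Itga11 were not.

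Of 24 matrix regulators, 12 were higher and 2 lower in BLKS, where 64.7% of all genes were called, 30.1% higher and 34.5% lower. The difference in direction from all genes was not tested. Cyr61 rose by 2.61 ± 0.15, Pdgfa by 1.36 ± 0.07 and Skil, a repressor of SMAD signalling, by 1.07 ± 0.06 (limma adjusted p = 3.32e-12, 2.63e-13 and 2.17e-12), and all 12 BLKS mice lay above all 12 BL6 mice for each. Ltbp4, which stores latent TGF-beta in the matrix, fell by 0.87 ± 0.07 (adjusted p = 5.45e-10), and Inhba was at -0.43. Inside slides 2 and 4 Cyr61 (2.61), Pdgfa (1.26), Skil (0.92) and Ltbp4 (-0.39) were called, and Inhba was at -0.06. Apart from Mfap2, no gene of the 7 lists passed for HFD or pioglitazone within a strain. Among the values that did not pass were Ltbp4 for HFD in BLKS (-0.46, adjusted p = 0.158) and Ctgf for pioglitazone in BL6 (-0.77, adjusted p = 0.250).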

How the data were processed

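Each array is the scanner output of 1 mouse's islet RNA, amplified and labelled with Cy3, per the labels' protocols. The deposited scanner files hold processed intensity per spot from Agilent Feature Extraction 10.7.3.1, with 62976 spots per array of which 59305 are not controls, per the file headers. The authors' deposited value table is a ratio of the processed intensity to the array's median, as shown by setting its columns, with a median of 1, against the scanner values. No measure of sequencing depth applies to arrays, and 4 mice per group limit the precision.

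From the deposited intensity, log2 values were taken relative to each array's 75th percentile over 55681 probes, after averaging spots and leaving out outlier spots (55 probes had no other). No spot was saturated. A probe was kept when well above background on at least 4 of 24 arrays (32750 probes). The brightest kept probe represented each of 22968 genes. limma 3.58.1 in R 4.3.3 fitted 6 group means and 12 contrasts, with Benjamini-Hochberg adjustment over all genes at 0.05. SE and 95% intervals are from that fit. Where no mouse of a group was well above background, the fold is a lower bound against, per array, the higher of the dimmest signal well above background and the probe's own. Correlations over 24 mice used permutation tests of 100000 resamples (two-sided, smallest p 1e-05, adjusted over 16 of 18 planned pairs; those with Col5a2 and Col15a1 were too dim). The script was tested on simulated data.

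Alternatives were normexp (offset 50) with quantile normalization, quantile normalization, the authors' table, no filter, a filter on all 24 arrays, averaged probes, every probe as a row, a block for the slide or for the mouse number, a fit on the compared groups alone, and each mouse left out. The fit inside slides 2 and 4, the fit without the 2 arrays of slide 4 and the alternatives for pathway genes were added after seeing the data. The fit inside slides 2 and 4 ran on all 24 arrays with a term for slide 4, and only its contrast was limited to those slides. Its SE and adjusted p therefore draw on the spread of all 6 groups. All chains of the 3 classes are named, with other collagens that passed and, from each pathway list, up to 4 passing genes per direction of smallest p. Of the genes this rule selects, 2 are not reported here. Ltbp4 and Ctgf, given as not passing for diets, had the smallest p there among the genes of their list. The members and lists were chosen with earlier results of these data known. Mouse numbers name different animals in each group. Protein sequences were not used here.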

Additional observations from a re-analysis of the deposited data

Results flagged for a closer look

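In 9 of 156 groups of 4 mice, for the 26 collagen genes, 1 mouse lay so far from the other 3 that its gap exceeded Dixon's 95% limit; chance gives about 1 in 20 groups. BLKS chow mouse 1 stood apart in Col1a1 (0.61, others -1.001 to -0.83), Col1a2 (2.52, others 1.53 to 1.66), Col18a1 (1.08, others -0.11 to 0.01) and, on the low side, Col16a1 (1.66, others 1.98 to 2.02). BLKS chow mouse 3, which lay on slide 4, stood apart in Col6a6 (-1.15, others -1.80 to -1.71) and Col13a1 (-1.82, others -2.45 to -2.42). Among BLKS HFD mice, mouse 2 stood apart in Col4a6 (-2.61, others -2.47 to -2.44) and Col16a1 (1.54, others 1.26 to 1.27), and mouse 3 in Col7a1 (0.14, others -1.58 to -1.40).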

How the results depend on the processing

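No collagen gene was called for HFD or pioglitazone under any alternative run. Collagen calls between strains numbered 8 to 10 on chow, 6 to 11 on HFD, 9 to 11 on HFD with pioglitazone and 8 to 15 over the 3 diets under other settings, and 8 to 9, 6 to 10, 10 to 11 and 13 to 17 with 1 mouse left out. The HFD count was 6 when only the groups compared were fitted. The 8 set under the 3 diets is the count for BLKS chow minus BL6 HFD with pioglitazone inside slides 2 and 4. That is a different comparison, in which strain cannot be told apart from diet and drug. Inside those slides, which hold fewer samples, 43.5% of all genes were called, against 64.7% over the 3 diets. The counts there were 2 for maturation, 7 for basement membrane partners, 5 for interstitial partners and 6 for receptors. Degradation calls were 6 with the filter on all 24 arrays, which tests fewer genes and called 68% of all genes tested. The interstitial call for pioglitazone in BL6 (1) was 0 under quantile normalization, the authors' table, no filter, averaged probes, the replicate block and only the groups compared, and 0 to 2 with 1 mouse left out. Signs turned for Col16a1 (-0.035) and Fbln1 (0.014) with averaged probes, and inside slides 2 and 4 for Col5a1 (-0.015), Col13a1 (0.34), Tram2 (-0.049) and Hspg2 (0.05). The causes were not tested. With the mouse number as a replicate block, collagen calls between strains were 9 on chow, 10 on HFD, 10 with pioglitazone and 13 over 3 diets, and 0 for diets. Arrays of the same number correlated at a median r of 0.045 over 60 pairs, and others at 0.033 over 180. Signal near background limits Col4a5, Col5a1, Col8a1, Col8a2 and Col9a1.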
